A study of Rattus norvegicus with 48 samples.

Results

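The rats described here are the 6 weak regenerators of a study of bone healing in the skull, with 24 of its 48 plasma samples. They were taken by the regeneration label and animal number of each sample, rats C3, C6, C7, C16, C25 and C26, and each rat gave 1 plasma sample as a baseline before the operation (week 0) and others 1, 4 and 8 weeks after it. All were male rats, 12 weeks old at surgery (the methods of the study name the strain as Sprague-Dawley, another passage of it as Wistar, and the labels give none), in which a round full-thickness defect was drilled into the calvaria, the flat bone of the skull roof. The weak regenerators were so named from the least new bone on micro-computed tomography at the end of the study, and they came from rats with an empty defect, with a collagen and hydroxyapatite (CHA) scaffold carrying a plasmid for BMP2 and miR-590-5p, and with a CHA scaffold carrying extracellular vesicles of Wharton's jelly stromal cells. The labels do not tie a treatment to a rat, so treatment was not a term in any fit. The baseline samples are labelled as of unknown regeneration and were placed by animal. No unoperated rats were among the samples, so time since surgery and the growth of the rats over the same weeks cannot be told apart.

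MicroRNAs (miRNAs) are short RNAs that pair with messenger RNAs through bases 2 to 8, the seed, and lower their output. Many leave cells in vesicles or bound to protein and remain measurable in plasma, where blood cells are the main source and organs such as liver, muscle and cartilage add miRNAs of their own. A lower plasma share can mean fewer cells of a type, less release per cell or more of everything else, and counts of plasma RNA cannot tell these apart. The calvaria heals mainly by direct bone formation, without the cartilage template that growth plates and long bone fractures use.

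Levels are given as RPM, the share of a miRNA in all miRNA reads scaled to 1000000, and single adapter ligation favours some sequences, so a share of reads is not a molar amount and changes are compared within a miRNA. Changes were tested with edgeR's quasi-likelihood test with the rat as a block, and a miRNA was called at a false discovery rate (FDR, Benjamini-Hochberg adjusted p) under 0.05. With weeks 1 and 4 together set against baseline, 15 of the 349 tested miRNAs were called, which is 4.30%, and all 15 were lower after surgery. At an unadjusted p under 0.05 there were 63 of 645 miRNAs (9.77%), 47 lower (7.29%) and 16 higher (2.48%). The 15 include families by position and a family by tissue. There are 7 from the miR-322 cluster on chromosome X, 4 arms of the cartilage miRNAs miR-140 and miR-455, 2 from the imprinted Dlk1-Dio3 region on chromosome 6, and miR-149-5p and miR-125b-1-3p.

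The mature sequences of the called miRNAs are printed so that their seeds, which decide the targets, can be set beside their positions. They are from RefSeq (assembly GRCr8), 5′ to 3′, with the seed in capitals, and 14 of the 15 matched by name, all but miR-455-5p.

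miR-503-3p: gGAGUAUUguuuccgcugccugg
miR-322-3p: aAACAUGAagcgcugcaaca
miR-351-3p: gGUCAAGAggcgccugggaac
miR-503-5p: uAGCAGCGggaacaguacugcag
miR-322-5p: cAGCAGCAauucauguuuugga
miR-351-5p: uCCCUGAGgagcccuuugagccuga
miR-542-5p: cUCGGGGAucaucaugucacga
miR-140-3p: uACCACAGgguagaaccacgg
miR-140-5p: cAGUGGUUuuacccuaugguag
miR-455-3p: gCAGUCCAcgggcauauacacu
miR-149-5p: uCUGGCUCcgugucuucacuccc
miR-125b-1-3p: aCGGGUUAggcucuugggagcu
miR-127-3p: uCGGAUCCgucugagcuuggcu
miR-494-3p: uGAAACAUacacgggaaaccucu

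The 14 seeds all differ from each other. The seed of miR-322-5p, AGCAGCA, also occurs in 4 other measured miRNAs, miR-15b-5p, miR-16-5p, miR-195-5p and miR-497-5p, and that of miR-351-5p, CCCUGAG, in miR-125a-5p and miR-125b-5p. None of these 6 seed relatives was called at weeks 1 and 4. The hairpins of miR-322, miR-503, miR-351, miR-542, miR-450b and miR-450a lie within 5.309 kb of chromosome X, written chrX:137720933-137726241 on the minus strand of GRCr8. Both arms of miR-140 come from chromosome 19, at 52375353 to 52375373 (3p) and 52375314 to 52375335 (5p) on the plus strand, and miR-455-3p comes from chromosome 5, at 81704881 to 81704902 on the plus strand. The counts carry no coordinates. The methods of the study name an older rat assembly for the mapping, while the submitters' processing notes list the human build GRCh38.p12, and which was used cannot be told from the counts.

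The miRNAs of the miR-322 cluster are transcribed together, and miR-322 is the rodent counterpart of human miR-424, a miRNA of the miR-15 and miR-16 seed family that restrains the cell cycle. For miR-322-3p, which had the most reads of the 7 called members, the lowest, median and highest levels of the 6 rats were 1739, 2747 and 3728 RPM at baseline. They were 908, 1077 and 1573 RPM at week 1 and 748, 919.5 and 1329 RPM at week 4. Every sample of weeks 1 and 4 lay below every baseline sample. The fitted log2 fold change over both weeks was -1.23 ± 0.17 (SE, n = 6 rats, FDR = 4.17e-06), a level 2.35-fold lower. By week 8 the levels were 238 to 638 RPM with a median of 316, below all baseline samples. The other arm, miR-322-5p, had a baseline range of 245 to 387 RPM (median 338), against 149 to 242 RPM at week 1 and 105.6 to 210.8 RPM at week 4 (log2 fold change -0.89 ± 0.16, FDR = 2.92e-04). These groups did not overlap either. The seed relatives of miR-322-5p had log2 fold changes of 0.49 ± 0.20 (miR-15b-5p), 0.21 ± 0.13 (miR-16-5p), 0.19 ± 0.45 (miR-195-5p) and -0.24 ± 0.28 (miR-497-5p), with FDRs of 0.217 or more.

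miR-503, which sits beside miR-322 in the cluster, showed the largest decrease. miR-503-3p ranged from 225 to 522 RPM at baseline (median 454.7), from 108 to 193.8 RPM at week 1 (median 168) and from 80.5 to 186 RPM at week 4 (median 110.0). All 12 later samples were below the 6 baseline samples, and the fold change was -1.47 ± 0.20 on the log2 scale (FDR = 4.17e-06), 2.77-fold lower. miR-503-5p had medians of 139, 53.3 and 57.3 RPM at baseline, week 1 and week 4, again without overlap (88.9 to 160.3 RPM at baseline, at most 68.8 and 88.0 RPM at weeks 1 and 4), and a log2 fold change of -1.10 ± 0.18 (FDR = 5.04e-05). miR-351, a rodent relative of the miR-125 family, followed with both arms. miR-351-3p had medians of 264, 96.03 and 63.3 RPM (log2 fold change -1.42 ± 0.22, FDR = 2.90e-05). Here rat C3 started low, at 93.8 RPM, so that 8 of the 12 later samples, not all, lay below every baseline sample. miR-351-5p had medians of 502, 257 and 175 RPM and no overlap (log2 fold change -1.01 ± 0.18, FDR = 2.88e-04).

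The remaining hairpins of the cluster, miR-542, miR-450b and miR-450a, lie downstream on the same strand. Of the 12 listed arms, 11 passed the filter on low values, all 11 had a log2 fold change below 0, 10 of them at an unadjusted p under 0.05, and the median was -0.89 beside 0.03 over all tested miRNAs. miR-542-5p was called, with medians of 80.1, 39.2 and 41.3 RPM (log2 fold change -0.89 ± 0.23, FDR = 0.0142), though not without rat C6, C25 or C26, and its opposite arm miR-542-3p was not called (-0.58 ± 0.20, FDR = 0.105). The 3 tested arms of miR-450a and miR-450b had log2 fold changes of -0.76 ± 0.34 (miR-450b-5p), -0.74 ± 0.24 (miR-450a-5p) and -0.61 ± 0.30 (miR-450b-3p), with FDRs between 0.0763 and 0.313. miR-450a-3p, with at most 2.99 RPM in any of the 24 samples, was not tested. Summed over the cluster, the level had a median of 6147 RPM at baseline (3987 to 7150.5), 3109 RPM at week 1 (2245 to 3980.2), 2392 RPM at week 4 (1759 to 2649.6) and 1782 RPM at week 8 (1297 to 3347), so no sample of weeks 1 and 4 reached the lowest baseline sum.

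miR-140 lies in an intron of Wwp2 and miR-455 in an intron of Col27a1, both genes that chondrocytes express, and mice without miR-140 have short bones and early cartilage wear. All 4 arms were called lower, with a median log2 fold change of -0.98. This list was chosen with earlier results of these data known. With weak and strong regenerators together, the paper names all 4 arms as lower than baseline at each time point after surgery. miR-140-3p had the 4th highest read share in these plasmas, 5.57% of the miRNA reads, and its lowest, median and highest levels were 61288, 99834 and 113974 RPM at baseline. They were 41208, 54101 and 62356 RPM at week 1, 35248, 44278 and 59921 RPM at week 4, and 25186, 27282 and 35748 RPM at week 8. Of the 12 samples of weeks 1 and 4, 11 lay below all baseline samples, and the level was 1.79-fold lower (log2 fold change -0.84 ± 0.12, FDR = 9.11e-06). miR-140-5p, with far fewer reads, had medians of 437, 246 and 285 RPM (log2 fold change -0.73 ± 0.19, FDR = 0.0153), and at week 8 the median was 91.5 RPM. This call was lost when rat C6, C7 or C16 was left out.

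miR-455-3p ranged from 2465 to 5667 RPM at baseline (median 4477), from 1741 to 3414 RPM at week 1 (median 2502) and from 1062 to 1644 RPM at week 4 (median 1378). The week 4 samples were all below the week 1 samples, and at week 8 the range was 1089 to 1817 RPM. The log2 fold change over weeks 1 and 4 was -1.12 ± 0.15 (FDR = 4.17e-06). miR-455-5p had medians of 860.2, 392 and 295 RPM, with no later sample at or above the lowest baseline level of 531 RPM (log2 fold change -1.13 ± 0.16, FDR = 4.17e-06). Summed over the 4 arms, the median level was 106093 RPM at baseline, 57119.6 RPM at week 1 and 46315 RPM at week 4.

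The 4 remaining called miRNAs were at or near the limit of the test, except miR-149-5p. miR-149-5p, from an intron of the glypican gene Gpc1, was named after its values were seen. It had medians of 374.5, 228 and 179 RPM (log2 fold change -0.82 ± 0.17, FDR = 0.00184), with 11 of the 12 later samples below all baseline samples, and it was not called without rat C6. miR-125b-1-3p, the minor arm of a miR-125b hairpin, had 23.5 to 42.4 RPM at baseline and at most 22.7 RPM at weeks 1 and 4 (log2 fold change -0.88 ± 0.26, FDR = 0.0499). The major arm, miR-125b-5p, had a log2 fold change of -0.06 ± 0.30. miR-127-3p and miR-494-3p belong to the Dlk1-Dio3 region, whose miRNAs are expressed from the maternal chromosome and are abundant in the embryo, brain and muscle. miR-127-3p had medians of 15.7, 6.01 and 4.80 RPM (log2 fold change -1.19 ± 0.34, FDR = 0.0424), and miR-494-3p had medians of 17.3, 9.22 and 10.3 RPM (-0.92 ± 0.27, FDR = 0.0489). Both overlapped between baseline and later samples. The calls of miR-494-3p and miR-125b-1-3p were lost whichever rat was left out and that of miR-127-3p without rat C3, C7, C16, C25 or C26.

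Over the whole comparison, all 12 samples of weeks 1 and 4 lay below all 6 baseline samples for 7 of the 349 tested miRNAs, which is 2.01%, and above them for none. The 7 were miR-125b-1-3p, miR-455-5p, miR-351-5p and both arms of miR-322 and of miR-503. In each of the 6 rats all 15 called miRNAs were lower at week 1 than at baseline, and at week 4 all 15 were lower in 4 rats and 14 in the other two. The 15 were picked by a test of these same samples, so a shared direction among the rats follows in part from the pick. The median change of the 15 by rat, on the scale of log2(RPM + 1), ran from -0.57 in rat C3 to -1.44 in rat C25 at week 1 and from -0.68 in rat C3 to -1.62 in rat C6 at week 4. Of the 15, 9 were called in every fit that left out a rat and in every other alternative.

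**Figure D1:**
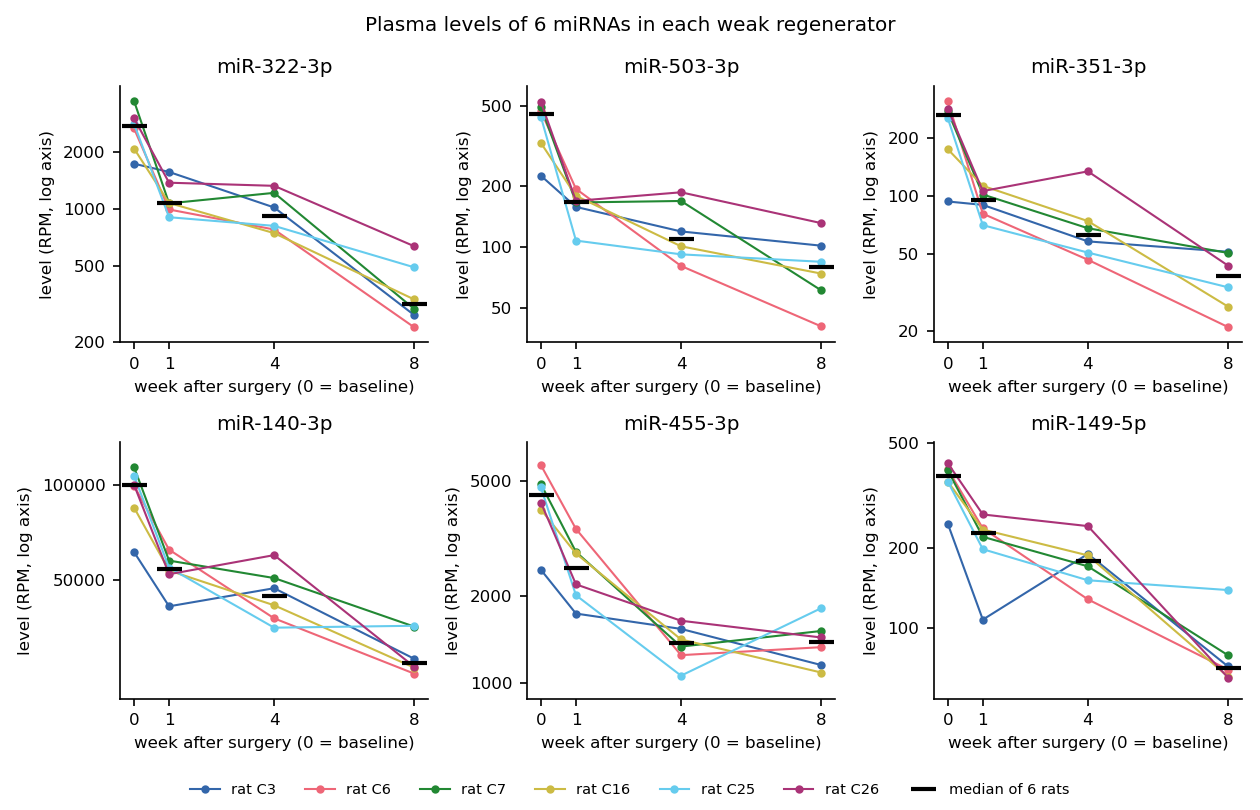
Levels in RPM (log axis) of 6 miRNAs at baseline (week 0) and at weeks 1, 4 and 8, with a line for each of the 6 weak regenerators and a black bar for the median. The median of miR-322-3p goes from 2747 to 316 RPM and that of miR-140-3p from 99834 to 27282 RPM, and rat C3 starts lowest for all 6.

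**Figure D2:**
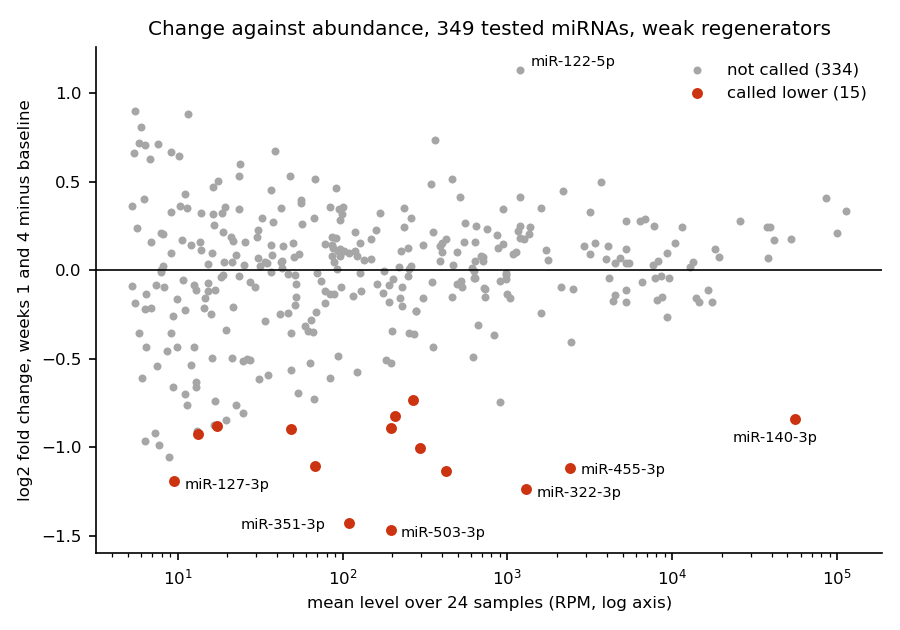
Fitted log2 fold change of weeks 1 and 4 together against baseline (vertical axis) by mean level in RPM over the 24 samples (log axis), 1 point for each of the 349 tested miRNAs, with the 15 called miRNAs in red. The called miRNAs all lie below 0 and span mean levels from 9.55 RPM (miR-127-3p) to 55741 RPM (miR-140-3p), and the highest point, miR-122-5p, was not called.

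No miRNA was called higher. The same was found with DESeq2 and limma-voom, each with 0 higher, but without rat C3 miR-144-3p and without rat C6 miR-486, both red blood cell miRNAs, were called higher by edgeR. The largest rise among miRNAs of at least 10 RPM was that of miR-122-5p, the main miRNA of hepatocytes, whose range was 433.7 to 2534 RPM at baseline (median 684), 263 to 4139 RPM at week 1 (median 1424) and 631 to 3156 RPM at week 4 (median 1502). The groups overlapped widely, and the log2 fold change of 1.13 ± 0.40 had an FDR of 0.106. The 8 listed liver miRNAs all had fold changes above 0 (median 0.43), 3 at an unadjusted p under 0.05 and none called.

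Red blood cell miRNAs were not called at weeks 1 and 4, but a ratio built on them was higher in most rats. The log2 ratio of miR-451-5p, which red cells carry in bulk, to miR-23a-3p, which they hardly carry, is a measure of haemolysis, and its median was 2.23 at baseline (1.63 to 2.55), 2.74 at week 1 (2.31 to 3.41), 2.55 at week 4 (1.74 to 3.34) and 3.15 at week 8 (2.58 to 3.57). It was higher than at baseline in 6 of 6 rats at weeks 1 and 8 and in 4 of 6 at week 4. Of the 7 listed red blood cell miRNAs, 6 had log2 fold changes above 0 at weeks 1 and 4, 4 at an unadjusted p under 0.05 and none called, with a median of 0.33. Examples are miR-144-3p with 0.50 ± 0.18 (FDR = 0.126) and miR-486 with 0.41 ± 0.14 (FDR = 0.0915). Their summed level was 271435 to 335356 RPM at baseline, 319083 to 441332 RPM at week 1 and 300262 to 388840 RPM at week 4. The part of haemolysis in the decreases was not tested.

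None of the other lists of tissues and cells that could add to plasma had a call at weeks 1 and 4 together. Of the 12 tested miRNAs linked to osteoblasts and collagen (such as miR-29a-3p, which targets collagen messengers, with 0.12 ± 0.16, and miR-204-5p, which targets Runx2, with 0.51 ± 0.38), none was called, and the median was 0.02. The 9 tested miRNAs of mesenchymal cells and vessels (for example miR-199a-3p with -0.01 ± 0.27) had a median of -0.07 and no call. Leukocyte and platelet miRNAs had a median of 0.02 over 9, with miR-223-3p, the myeloid marker, at 0.02 ± 0.13. The miR-17-92 and miR-106b-25 clusters, which proliferating and red cells express, had a median of 0.23 over 17, of which 15 were above 0. Of all 21 listed, tested or not, 2 had an unadjusted p under 0.05 in edgeR's test. The 14 tested epithelial and endocrine miRNAs had a median of -0.10, which joins weeks of opposite sign. At week 1 all 11 then tested were below 0 (median -0.42) and at week 4 10 of 11 were above 0 (median 0.21), with none called at either week, and UniSp2 scaling gave 9 of 11 above 0 at week 4 (median 0.10). Between week 1 and week 4, 16 of 17 were higher at week 4, with a median of 0.58 beside 0.00059 over all tested miRNAs, and 1, miR-200a-3p, was called. With scaling to the spike-in UniSp2, which lowered the median fold change of miRNAs of at least 10 RPM from 0.04 to -0.14, the red blood cell and liver medians were 0.14 and 0.29, that of the osteoblast and collagen list was -0.13, that of leukocytes and platelets -0.19, and the cartilage and miR-322 cluster medians were -1.15 and -1.04.

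The Dlk1-Dio3 region is the largest list, with 75 miRNAs, and most of it is near the detection limit. Of these, 25 passed the filter on low values. These 25 had log2 fold changes below 0, from -0.34 to -1.19 with a median of -0.66, and 2 were called. Over all 75 of the region, those below the filter included, 17 were lower at an unadjusted p under 0.05 in edgeR's test. Its summed level had medians of 747, 557 and 628 RPM at baseline, week 1 and week 4, with ranges of 464 to 2010.2, 226 to 767 and 285 to 1319.7 RPM that overlap.

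**Figure D3:**
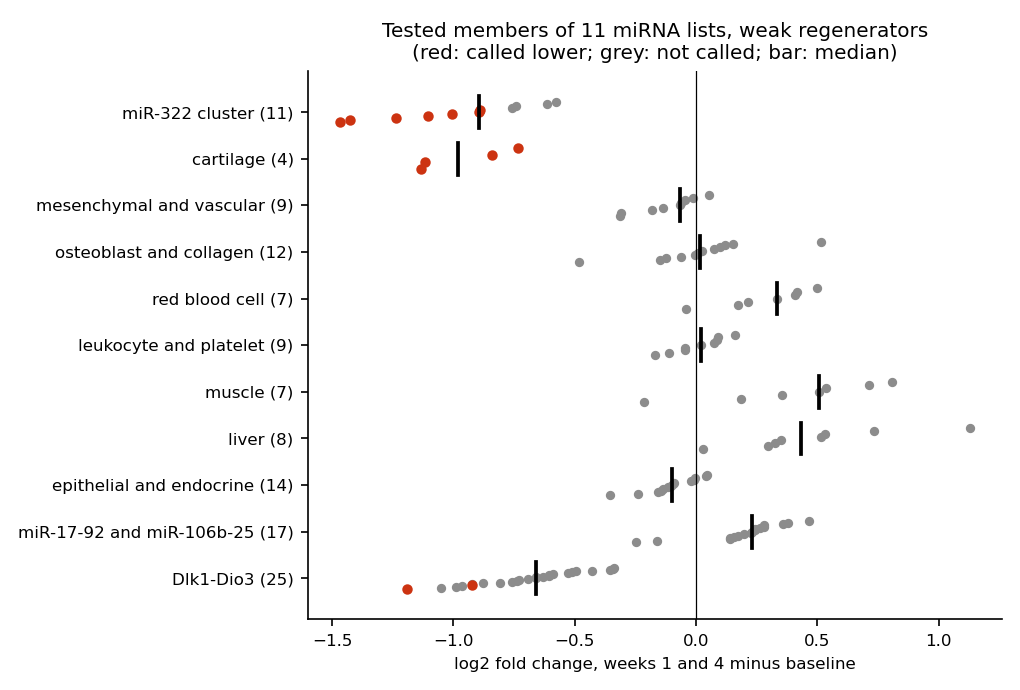
Fitted log2 fold changes of weeks 1 and 4 together against baseline for the tested members of 11 miRNA lists (number tested in brackets), 1 point per miRNA, red where called lower and with a black bar at the list's median. The cartilage list (median -0.98) and the miR-322 cluster (median -0.89) lie wholly below 0, as does Dlk1-Dio3 (median -0.66), and the osteoblast and collagen list is centred at 0.02. The lists were chosen with earlier results of these data known.

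The course over the single weeks was read from the same fit, so weeks 1, 4 and 8 share the 6 baseline samples. At week 1, 9 of 314 tested miRNAs were called, 2.87%, all lower: miR-503-3p, miR-494-3p, miR-503-5p, miR-351-3p, miR-322-3p, miR-455-5p, miR-351-5p, miR-140-3p and miR-455-3p. Without rat C6 no miRNA was called at week 1 by edgeR (78 had an unadjusted p under 0.05), and without rats C7 and C16 in turn 2 and 3 were called, while DESeq2 and limma-voom on all 6 rats called 18 each, 3 of them higher. At week 4, 19 of 303 were called, 6.27%, with 18 lower (5.94%) and 1 higher (0.330%). The decreases at week 4 included miR-503-3p (-1.72 ± 0.24), miR-351-3p (-1.68 ± 0.27), miR-455-3p (-1.57 ± 0.18) and miR-450a-5p (-1.34 ± 0.28, FDR = 0.00171). The 1 increase was miR-15b-5p, the seed relative of miR-322-5p, with 0.84 ± 0.23 (FDR = 0.0232), named after its values were seen, and with UniSp2 scaling none was called higher. That call was lost without rat C6, C7, C16 or C26. At week 8 miR-15b-5p was called lower (-0.73 ± 0.23, FDR = 0.0149), though not without rat C3. Leaving out rat C6, C7, C16 or C26 took the week 4 count to 11 or 12.

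Between week 1 and week 4, 4 of 608 miRNAs were called, which is 0.658%, with 2 (0.329%) in each direction. miR-455-3p went on falling (-0.90 ± 0.18, FDR = 0.0138, lower in 6 of 6 rats), and miR-450a-5p fell from a median of 1042 RPM at week 1, where it was near its baseline of 1141 RPM, to 413 RPM at week 4 (-1.19 ± 0.29, FDR = 0.0498, lower in 5 of 6 rats). miR-10b-5p, encoded within a Hox cluster, had 341.9 to 739.8 RPM at baseline and rose from a range of 213 to 449 RPM at week 1 to a range of 479.8 to 1291 RPM at week 4, without overlap (1.03 ± 0.22, FDR = 0.0141, higher in 6 of 6 rats). miR-200a-3p, an epithelial miRNA, rose from a median of 484 RPM at week 1, below its baseline median of 717 RPM, to 1027 RPM at week 4, with ranges that overlap (0.86 ± 0.21, FDR = 0.0498, higher in 6 of 6 rats). Neither was called against baseline at week 1 or week 4 (log2 fold changes -0.49 and 0.54 for miR-10b-5p, -0.43 and 0.43 for miR-200a-3p), and at week 8 both were called lower (-1.31 ± 0.22, FDR = 2.28e-05, and -0.88 ± 0.21, FDR = 0.00192). The calls between weeks 1 and 4 depended on the rats and the scaling. The count was 0 without rat C7 or C16, 1 without rat C6, 16 without rat C3, 20 without rat C25 and 0 with scaling to the spike-in UniSp2. By edgeR's test there were then 40, 35 and 43 miRNAs with an unadjusted p under 0.05 without rat C7, without rat C16 and under UniSp2 scaling, and DESeq2 and limma-voom on all rats called 13 and 5.

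Of 14 listed muscle miRNAs, 7 passed the filter at weeks 1 and 4 and none was called, with a median of 0.51. That median joins weeks of opposite sign. At week 1 all 4 then tested were below 0 (median -0.22), and at week 4 all 4 were above 0 (median 1.04), with none called at either week. miR-133a-3p, a miRNA of skeletal and heart muscle, had medians of 1086, 785, 1906 and 1695 RPM at baseline and weeks 1, 4 and 8, and in all 6 rats it was higher at week 4 than at week 1. The log2 difference of week 4 from week 1 was 1.14 ± 0.33 for miR-133a-3p, 1.51 ± 0.44 for miR-1b, 1.38 ± 0.45 for miR-1-3p and 1.301 ± 0.44 for miR-133b-3p, with unadjusted p of 0.00167 to 0.00620 in edgeR's test and FDRs of 0.145 to 0.222, so none was called. Against baseline over weeks 1 and 4, miR-133a-3p had 0.35 ± 0.29 (FDR = 0.602). miR-375-3p, a miRNA of pancreatic islets and other endocrine cells, had -0.10 ± 0.17 (FDR = 0.886), with medians of 2733, 2140.0, 2019 and 3069.5 RPM over the 4 time points. At week 8 both were called higher than at baseline, miR-133a-3p at 0.97 ± 0.34 (FDR = 0.0265) and miR-375-3p at 0.60 ± 0.20 (FDR = 0.0202). The call of miR-133a-3p was lost without rat C7 and without the block of rats, and that of miR-375-3p without rat C25, both were lost with library size alone, and with UniSp2 scaling the values turned to -0.97 and -1.30. miR-590-5p, which the plasmid of one scaffold encodes, is not among the 645 miRNAs listed.

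Week 8 stood apart in the spike-in share of its libraries. Over all 24 samples the total miRNA count ran from 393259 to 1514610, with a median of 809762, and the 3 miRNAs with the most reads, miR-451-5p, miR-16-5p and miR-486, which red blood cells carry, took 11.4%, 10.04% and 8.62% of the reads. The spike-in UniSp2, a synthetic RNA added in a fixed amount at lysis, took 98.4 to 139.9 reads per 1000 miRNA reads at week 8. At the other time points it took 23.3 to 53.0. The total miRNA count was 393259 to 708614 at week 8 and at least 754637 at baseline. Weeks 1 and 4, with lowest totals of 421685 and 489502, overlapped week 8 in the total. At week 8 all 6 rats were above their own baseline for the spike-in share and below it for the total. Against that background, 166 of 490 tested miRNAs were called at week 8, 33.9%, with 64 higher (13.1%) and 102 lower (20.8%). With RLE size factors the split was 78 higher and 81 lower, with library size alone 47 and 123, with limma-voom 140 and 105, and with scaling to UniSp2 0 and 416. UniSp2 scaling moved the median log2 fold change of miRNAs of at least 10 RPM to -2.01 from -0.16, so directions at week 8 are relative to the other miRNAs. A difference in the libraries and one in the plasma at week 8 cannot be told apart.

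Within that scale, miR-322-3p had the lowest fold change at week 8 of miRNAs with at least 10 RPM (-2.69 ± 0.22), ahead of miR-203b-3p (-2.46 ± 0.46), a relative of the skin miRNA miR-203, and of miR-134-5p of the Dlk1-Dio3 region (-2.45 ± 0.44). For both of these, the week 8 samples all lay below baseline, while weeks 1 and 4 did not, and their fold changes over weeks 1 and 4 were 0.10 ± 0.30 and -0.49 ± 0.30. The largest rises under the naming rule were those of miR-9a-5p, a neural miRNA (2.15 ± 0.58), of miR-34b-5p, a p53-induced miRNA (1.93 ± 0.30), and of miR-181c-5p (1.66 ± 0.23). miR-9a-5p was at 169.5 and 220.1 RPM in rats C16 and C26 at week 8 and at 16.9 to 32.4 RPM in the other 4, with 7.46 to 29.2 RPM at baseline, so the groups overlapped, and in rat C25 it was lower than at baseline. miR-34b-5p was at 61.0 to 258 RPM at week 8 and 32.1 to 57.3 RPM at baseline, and miR-181c-5p at 1679.6 to 2601 RPM and 540.7 to 1084 RPM, with no overlap for either of these. With UniSp2 scaling these 3 had log2 fold changes of 0.29, 0.08 and -0.27 and none was called higher, while miR-322-3p was at -4.53 and miR-140-3p at -3.41.

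The called miRNAs did not follow one shape to week 8. At weeks 1, 4 and 8 the log2 fold changes were -0.74, -0.73 and -2.19 for miR-140-5p and -0.68, -0.96 and -1.99 for miR-149-5p. They were -0.67, -1.57 and -1.45 for miR-455-3p and -0.87, -0.92 and -0.86 for miR-542-5p. The SE of these values was between 0.18 and 0.28. All 4 were relative to a baseline that the weeks share.

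**Figure D4:**
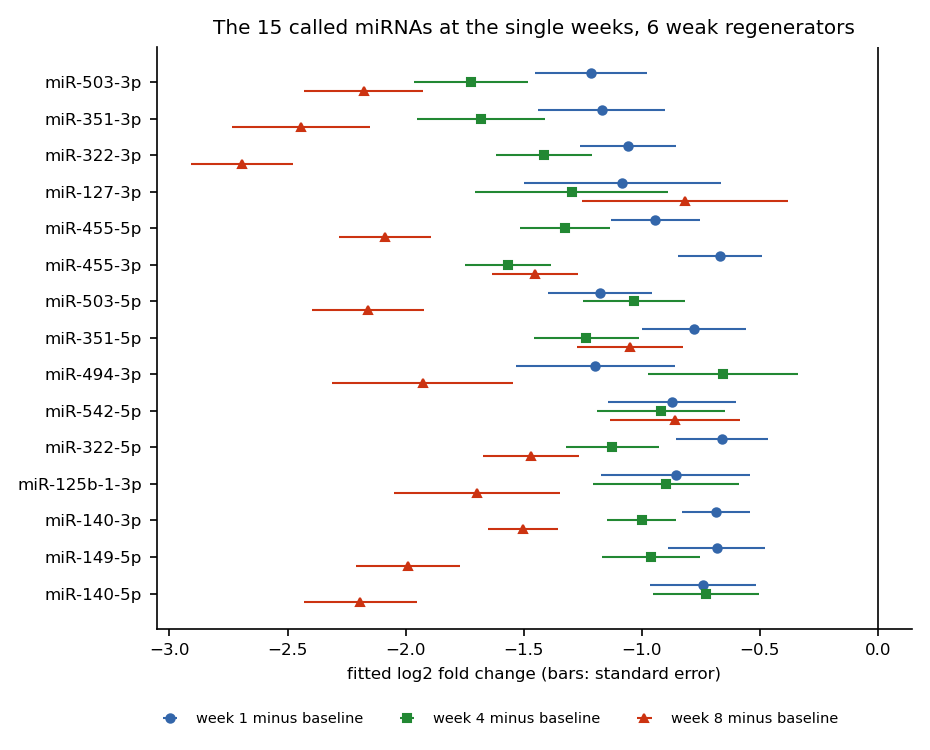
Fitted log2 fold change against baseline of the 15 called miRNAs at week 1 (circles), week 4 (squares) and week 8 (triangles), with SE as bars, over the 6 weak regenerators. All values lie below 0, and those of weeks 1 and 4 took part in picking the 15. miR-322-3p goes from -1.06 at week 1 to -2.69 at week 8, and miR-542-5p has about the same value at all 3 weeks.

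**Figure D5:**
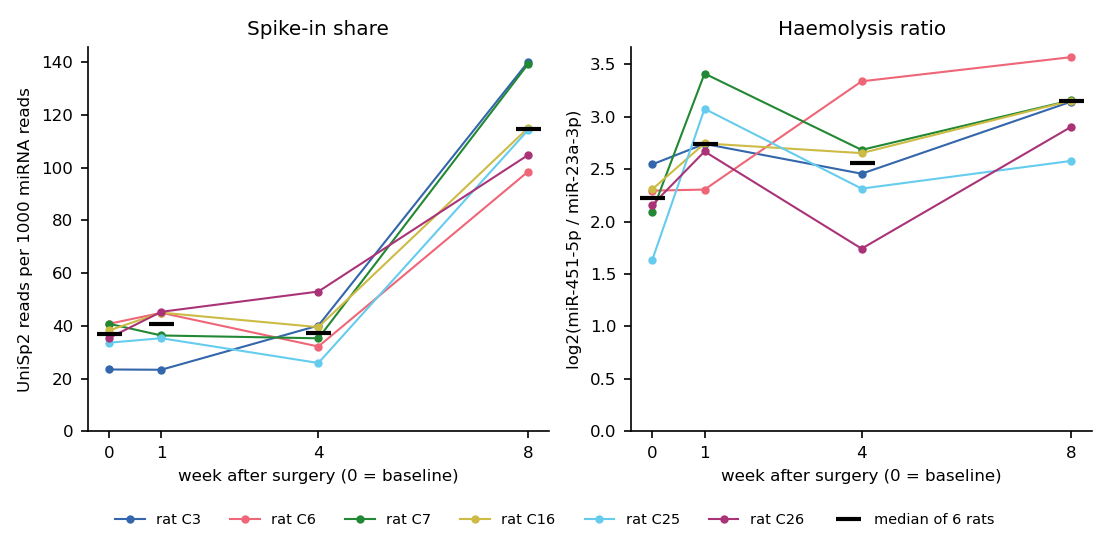
Reads of the spike-in UniSp2 per 1000 miRNA reads (left) and the log2 ratio of miR-451-5p to miR-23a-3p (right) by week after surgery, with a line for each of the 6 weak regenerators and a black bar for the median. The spike-in share is 98.4 to 139.9 at week 8 and at most 53.0 before, and the median ratio goes from 2.23 at baseline to 2.74 at week 1 and 3.15 at week 8.

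Whether these changes differed from those of the 6 strong regenerators over the same weeks was tested as an interaction over all 48 samples. By the paper, the strong regenerators included rats given a CHA scaffold with nothing added, a treatment that none of the weak regenerators had. Regeneration and treatment can therefore not be wholly told apart in this comparison. edgeR called 0 of 645 miRNAs, with 27 (4.19%) at an unadjusted p under 0.05, and DESeq2 and limma-voom also called 0 (28 and 69 at an unadjusted p under 0.05). For miR-322-3p the log2 fold change was -1.23 in weak and -1.32 in strong regenerators, with a difference of 0.12 ± 0.25 (SE), and for miR-140-3p -0.84 and -0.66, with a difference of -0.15 ± 0.18. The value of the strong regenerators and the difference come from the fit over 48 samples and that of the weak from the fit over 24, so they need not subtract exactly. Of the 15 called miRNAs, 14 had a fold change below 0 in the strong regenerators, and the exception was miR-494-3p, at -0.92 in weak and 0.22 in strong regenerators (difference -1.11 ± 0.40, FDR = 0.935). The smallest p among miRNAs of at least 10 RPM were those of let-7c-5p, let-7b-5p and let-7a-5p, sister miRNAs with 1 seed that most differentiated cells express. Their differences were 1.27 ± 0.38, 1.21 ± 0.36 and 1.12 ± 0.37, higher in weak than in strong regenerators, with FDRs of 0.552, 0.552 and 0.935. In the weak regenerators alone let-7c-5p had medians of 819, 942 and 896 RPM at baseline, week 1 and week 4.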

How the data were processed

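Total RNA was extracted from plasma with a miRNeasy kit and spiked with synthetic RNAs, and libraries were made by single adapter ligation. The authors trimmed reads with cutadapt 3.3, checked them with FastQC 0.11.9 and MultiQC 1.10, and mapped them with Bowtie 1.3.0 and miRDeep2, per the methods first against the genome of the rat and next against its miRBase entries (the submitters' processing notes list a human build). The deposited values are raw counts, not normalized, of 645 miRNAs and 3 spike-ins in 48 samples, of which 24 are used here and the others only for the interaction. No molecular identifiers were used, so depth covers counting error only. How reads that fit several related miRNAs were shared out is not given in the sources used here.

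Counts were fitted with edgeR 4.0.16 in R 4.3.3 (quasi-likelihood method of version 3, TMM factors, terms for rat and week, 2-sided), with DESeq2's independent filter on mean RPM (5.29 RPM for weeks 1 and 4), Benjamini-Hochberg adjustment and calls under 0.05. Spike-ins stayed out of the library sizes. Values per rat are log2(RPM + 1), and tables and plots used Python 3.11.15 and matplotlib 3.10.9. Scripts were tested on simulated data. The same number marks the same rat, so the rat was a block. Deviations from the week means correlated at 0.080 on average within rats and at -0.015 between rats. Samples of the same week differed by 26.3 to 481 in chi-square per degree of freedom over 60 pairs, so none was a copy. The miRNAs named are the 12 largest changes each way among calls with a mean of at least 10 RPM and a shared sign in 5 or more of the 6 rats, members of 11 lists, the 3 largest each way for the other contrasts, the 3 smallest p of the interaction, miR-133a-3p, miR-375-3p and miR-590. The members, lists and tests were chosen with earlier results of these data known. The alternatives were RLE factors, library size alone, UniSp2 scaling, filterByExpr, no filter, the method of edgeR 4, DESeq2 1.42.0, limma-voom (limma 3.58.1), no block, no week 8 samples and each rat left out. Treatment groups, bone volumes and target predictions were not used here.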

Additional observations from a re-analysis of the deposited data

Results flagged for a closer look

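The 28 miRNAs examined, each at 4 time points, made up only part of 132 groups of 6 samples. In 11 groups, all of miRNAs, the lowest or highest sample was set apart from the other 5 by more than 0.625 of the group's range. That is the 95% critical value of Dixon's test, which chance alone gives in about 1 in 20 groups. The share over the miRNA groups alone is therefore higher than 11 of 132. Rat C3 was lowest for miR-149-5p at baseline (247 RPM) and at week 1 (107 RPM). Rat C25 was highest for miR-149-5p at week 8 (139 RPM), for miR-450a-5p at baseline (1882 RPM) and for miR-200a-3p at week 8 (803 RPM), and lowest for miR-503-3p at week 1 (108 RPM). Rat C26 was highest for miR-351-5p at week 8 (511 RPM), and rat C6 lowest for miR-125b-1-3p at week 8 (1.62 RPM). Rat C7 was highest for let-7b-5p (1259 RPM) and let-7a-5p (192.5 RPM) at week 4 and lowest for miR-133a-3p at baseline (304 RPM). Of the 15 called miRNAs, the calls of weeks 1 and 4 that such a sample of baseline or week 1 touches are miR-503-3p, which was called without each rat, and miR-149-5p, which was not called without rat C6.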

How the results depend on the processing

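The count of 15 for weeks 1 and 4 against baseline was 23 with library size alone, 11 to 15 when a rat was left out and 12 to 22 under the other alternatives, with 14 or 15 of the original miRNAs among the calls under DESeq2, limma-voom, filterByExpr, UniSp2 scaling, the edgeR 4 method and without week 8, and 12 under RLE factors and with no filter. Without the replicate block of rats it was 12, all among the 15. The 9 calls at week 1 became 17 with library size alone, 17 with UniSp2 scaling, 18 with the edgeR 4 method, 18 with DESeq2, 18 with limma-voom, 14 without week 8 and 0 to 12 when a rat was left out. The 19 calls at week 4 became 11 to 23 when a rat was left out. The 166 calls at week 8 became 416 with UniSp2 scaling and 128 to 170 when a rat was left out. The 4 calls of week 4 against week 1 became 11 with RLE factors, 10 with library size alone, 0 with UniSp2 scaling, 2 with no filter, 2 with the edgeR 4 method, 13 with DESeq2, 2 without the block, 11 without week 8 and 0 to 20 when a rat was left out. The interaction stayed at 0 calls under every alternative, with 17 to 69 at an unadjusted p under 0.05. miR-375-3p, not called at weeks 1 and 4 together in any of these fits, had a log2 fold change there of -0.10 with all rats, -0.29 without rat C3 and 0.036 without rat C7. The cause of these shifts was not tested. miR-127-3p, miR-494-3p and miR-125b-1-3p, at means under 20 RPM, were the least stable of the 15, and the low totals of week 8 limit what can be read there for miRNAs of a few RPM.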

Other observations

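Beside the families described above, 4 miRNAs were called lower at week 4 and were not called at week 1 or week 8 (none was called between week 4 and week 1, and week 8 against week 4 was not tested), miR-99a-3p (log2 fold change -1.06 ± 0.33, FDR = 0.0492), miR-125b-2-3p (-0.75 ± 0.20, FDR = 0.0157), miR-181a-1-3p (-0.65 ± 0.19, FDR = 0.0395) and miR-181b-5p (-0.56 ± 0.16, FDR = 0.0264), by edgeR's quasi-likelihood test over 6 rats. They were picked after their values were seen. The first 3 are the minor arms of their hairpins. At week 1 the log2 fold changes were -0.26 ± 0.19 for miR-125b-2-3p, -0.39 ± 0.19 for miR-181a-1-3p and -0.26 ± 0.16 for miR-181b-5p. With weak and strong regenerators together, the paper lists some of these miRNAs as lower than baseline at every time point after surgery. Those are miR-125b-2-3p and miR-181a-1-3p. The calls here do not show a decrease confined to week 4.

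At week 8 the lists can be set beside 33.9% called over all tested miRNAs, 20.8% lower and 13.1% higher, with a median of -0.24. Of the Dlk1-Dio3 miRNAs 51 passed the filter, all 51 had fold changes below 0 (median -1.50) and 18 were called lower. That is 35.3%, beside 20.8% called lower and 33.9% called in either direction over all tested miRNAs. All 4 cartilage arms (median -1.79) and 10 of 11 tested arms of the miR-322 cluster (median -1.47) were called lower. Of the 7 red blood cell miRNAs 5 were called higher (median 0.44), of 9 leukocyte and platelet miRNAs 2 were called higher and 4 lower, and of 13 osteoblast and collagen miRNAs 4 were called higher and 5 lower. With UniSp2 scaling no miRNA was called higher at week 8.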
